A study of Enchytraeus crypticus with 9 samples.

Results

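Cocoons of the potworm Enchytraeus crypticus exposed to the higher of 2 cadmium doses, 16 mg Cd/kg soil, were compared with cocoons exposed to the lower one, 5 mg Cd/kg soil. The comparison used 6 of the 9 arrays of the series, 3 per dose. Its features were the 21844 of 43750 probes (49.9%) whose spots the scanner software marked as well above background on each of the 3 arrays of either dose. Of these, 17010 met that mark on all 6 arrays, 4610 only through the 3 arrays at 16 mg, and 224 only through the 3 arrays at 5 mg. A probe that entered through 1 dose alone had to be brighter there, so the sizes of these classes are no finding. They are set beside the levels below because they bear on how a difference reads.

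E. crypticus is a small white oligochaete worm of the soil litter, used in toxicity testing, whose embryos develop inside a cocoon. The 16 mg and 5 mg groups were kept in LUFA 2.2, a natural standard soil, spiked with cadmium, and the control group in the same soil un-spiked. Every sample was an extract of whole cocoons, pooled from 300 cocoons that were 1 to 2 days old after laying, and exposure lasted 1 day. Each group had 3 samples that the submitters call biological replicates, so the p-values measure the spread between pools. In extracts of whole cocoons, fewer cells of a type and less RNA per cell cannot be told apart. The control arrays enter no test here and only show where an untreated level lies.

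Cadmium is a metal with no known use in animals. It binds the sulphur groups of proteins and of glutathione, and animals answer it with metallothioneins, small cysteine-rich proteins that hold metal ions, with antioxidant enzymes and with heat-shock proteins that refold damaged proteins. Annelids, the phylum of E. crypticus, are known for strong metallothionein responses. The array names its probes by assembled sequences (contigs) or by single sequencing reads, and the files pair none of these names with a gene, so the lists of such genes were not tested. Contigs made up 11285 of the 21844 compared probes (51.7%) and 53% of the whole array.

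RNA was labelled with Cy3 and read on 1-colour Agilent arrays. A level is the processed signal over the 75th percentile of its own array, as log2, so a level of 0 is the brightness of that percentile. With 3 arrays a dose, their number sets how precise each value can be. The 75th percentile of the processed signal was 48.9 to 87.3 on the 16 mg arrays, 38.3 to 84.9 on the 5 mg arrays and 74.4 to 78.1 on the control arrays. The mean local background was 34.8 to 38.6 at 16 mg, 35.3 to 43.8 at 5 mg and 29.9 to 35.2 in controls. Neither measure differed between the doses by more than arrays of 1 dose did (two-sided exact permutation test, p = 0.5 for each). Per the file headers, slide 1 held 16 mg array 1 and 5 mg array 2, slide 2 held 16 mg arrays 2 and 3 and 5 mg array 3, and slide 3 held 5 mg array 1 alone. Scan sessions divided these 6 arrays in the same way. Control arrays 1 and 3 were on slide 1 and control array 2 was on slide 2. Control array 3 shared the session of 16 mg array 1 and 5 mg array 2. Control arrays 1 and 2 were each scanned in a session without a cadmium array. Distances from control may thus also hold differences of slide or session. What belongs to 5 mg array 1 and what belongs to slide 3 or its session cannot be told apart.

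The first question was how many transcripts could be seen at each dose. Probes well above background numbered 22361, 27239 and 26346 on 16 mg arrays 1 to 3 and 19614, 20604 and 23287 on 5 mg arrays 1 to 3. Only 16 mg array 1 fell inside the range seen at 5 mg. On average there were 25315 ± 2597 (SD, n = 3) such probes at 16 mg and 21168 ± 1900 (SD, n = 3) at 5 mg, with controls at 28127 ± 1734 (SD, n = 3). The difference of 4147 probes was larger than the SD of either dose. The test could not settle whether the doses differ in this (two-sided exact permutation test, p = 0.2, where 3 against 3 cannot go below 0.1).

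The cocoon pools at 5 mg Cd/kg lay further apart than those at 16 mg Cd/kg, and part of that came with 5 mg array 1. The median SD of a probe over the 3 arrays of a dose was 0.36 on the log2 scale at 16 mg and 0.68 at 5 mg, with 0.19 in controls. The SD was larger at 5 mg than at 16 mg for 78.1% of probes. It was over 1 for 539 probes (2.47%) at 16 mg and for 5852 probes (26.8%) at 5 mg. Without 5 mg array 1 the median SD at 5 mg was 0.44, the SD was larger at 5 mg for 57% of probes, and it was over 1 at 5 mg for 2948 probes (13.5%). The median of an SD over 2 arrays tends to lie below that over 3, which lowers these values. Without 5 mg arrays 2 and 3 in turn the median SD at 5 mg was 0.57 and 0.69. At 16 mg it was 0.32, 0.27 and 0.29 without arrays 1, 2 and 3. With spike-in scaling the median SD was 0.57 at 16 mg and 0.76 at 5 mg.

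**Figure D1:**
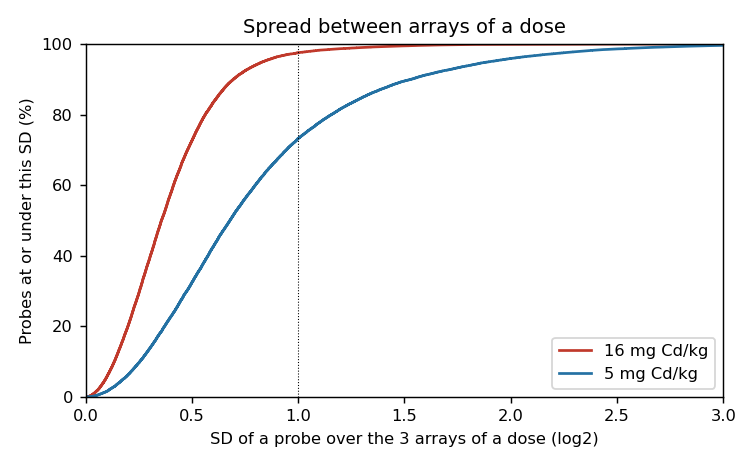
Share of the compared probes (vertical axis, percent) whose SD over the 3 arrays of a dose (horizontal axis, log2) is at or under a given value, for 16 mg Cd/kg in red and 5 mg Cd/kg in blue. At the dotted line, an SD of 1, the red curve leaves 2.47% of probes above it and the blue curve 26.8%.

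Pairs of arrays showed the same thing as a share of probes more than 2-fold apart. It was 9.05% to 15.2% in the 3 pairs at 16 mg, and 28.4% to 49.1% in the 3 pairs at 5 mg. The 9 pairs that cross the doses ran from 8.72% to 42.8%, so they overlapped both. The closest of all cadmium pairs crossed the doses: 16 mg array 2 and 5 mg array 3, which share slide 2, were 2-fold apart for 8.72% of probes (Pearson r = 0.979 across 21806 probes, which are no independent replicates). The next array on that slide, 16 mg array 3, was 15.2% apart from 16 mg array 2 and 17.9% from 5 mg array 3.

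One pool stood apart. The pairs between 5 mg array 1 and the 8 other arrays had r = 0.834 to 0.888, while the pairs of the other cadmium arrays across the doses had r = 0.943 to 0.979. For a typical probe, 5 mg array 1 lay 0.89 away from the mean of the other arrays of its dose on the log2 scale (median absolute distance), against 0.70 for 5 mg array 2 and 0.52 for 5 mg array 3. The same distance was 0.32, 0.40 and 0.36 for 16 mg arrays 1 to 3. Without 5 mg array 1, the pairs across the doses were 8.72% to 26.3% apart. The spread, the counts of small p-values, the large differences and the distances from control are given with and without it.

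**Figure D2:**
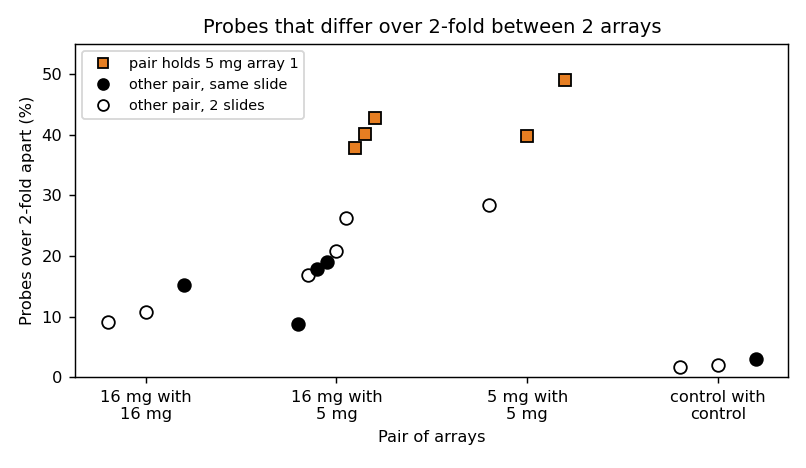
Share of compared probes that differ over 2-fold (vertical axis, percent) for pairs of arrays of the same or of different doses, with each point a pair. Orange squares are pairs with 5 mg array 1, which lie between 37.8% and 49.1%, and filled circles are other pairs on 1 slide.

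The central question was which transcripts differed between the doses. No probe passed an adjusted p of 0.05 in limma on the 6 arrays, 0 higher and 0 lower at 16 mg Cd/kg (0% of 21844 in each direction, smallest adjusted p 0.249). At an unadjusted p under 0.05 there were 660 probes (3.02%), of which 110 were higher (0.504%) and 550 lower (2.52%) at 16 mg. The 110 and 550 are a description of where the smallest p-values fell and not a list of changed transcripts. The split between the directions was not stable. It was 33 higher and 533 lower among the 17010 probes above background on all 6 arrays, and 109 higher and 207 lower with spike-in scaling. It was nearly even at 613 higher and 643 lower with slide as a block. It still leaned to lower, though less, at 603 and 732 with array weights, and at 452 and 615 without 5 mg array 1. It turned without 5 mg array 2, where 1249 were higher and 892 lower. The total of 660 became 369 when 16 mg array 3 was left out. When 5 mg arrays 1, 2 and 3 were left out in turn it became 1067, 2141 and 1069.

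The 9-array fit, in which the controls help to set the spread, called 62 probes in limma, all lower at 16 mg, with a median difference of -2.23. All 62 were among the 90 probes with the smallest p in the 6-array fit, and for all 62 the 16 mg arrays lay below every 5 mg array. Both fits take the dose difference from the same 6 cadmium arrays, so this overlap is no separate support. The controls vary less than the cadmium arrays, as the median SDs above show, so this fit rests on a smaller pooled spread. A fit with weights per array called 5 and a fit with slide as a block called 2, all lower. Both weigh down or take up 5 mg array 1.

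A p that misses the threshold does not show that the doses act alike, and the intervals were wide. The 95% interval of the dose difference reached a median of 1.1 to either side on the log2 scale. It lay within a 2-fold difference for 1321 probes (6.05%) and within a 4-fold difference for 17339 (79.4%). The 1321 became 0 when any single 16 mg array was left out, and 2830, 751 and 7 when 5 mg arrays 1, 2 and 3 were left out in turn. The fitted difference itself was within 2-fold for 19676 probes (90.1%). Its median was 0.03 and its central 90% of probes ran from -0.83 to 1.09. Scaling on the spike-ins raised the median to 0.26, so each direction holds relative to that percentile.

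**Figure D3:**
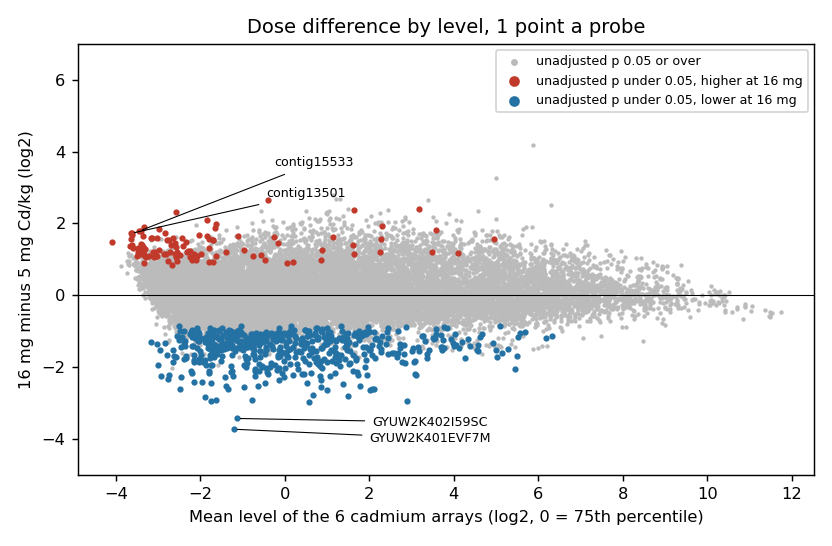
Fitted difference, 16 mg minus 5 mg Cd/kg (vertical axis, log2), against the mean level of the 6 cadmium arrays (horizontal axis, log2 relative to the 75th percentile), 1 point a probe. Coloured points have an unadjusted p under 0.05: 110 higher in red and 550 lower in blue. None passed the adjusted threshold.

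How bright the higher and lower probes were cannot be read apart from how probes entered the comparison. Of the 110 higher probes, 20 were well above background on all arrays at 5 mg, so the other 90 entered through the 16 mg arrays alone, where they had to be brighter. Of the 550 lower probes, 547 were so on all arrays at 5 mg and 488 on all arrays at 16 mg. By mean level, 76 of the 110 and 66 of the 550 were in the dimmest of 5 equal bins, in which 1251 of 4369 probes (28.6%) were detected by each 5 mg array. With the comparison limited to probes above background on all 6 arrays, a new fit counted 33 higher and 533 lower.

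The control arrays place these groups of probes. The 550 lower probes had a median difference of -1.39 between the doses (-1.24 within slide 1 and -1.30 within slide 2), a median of -0.07 for 16 mg minus control and of 1.32 for 5 mg minus control. They thus stood near the untreated level at 16 mg and above it at 5 mg. All 3 arrays at 16 mg lay above every control for 63 of them and below for 136, while the 3 arrays at 5 mg lay above every control for 495 and below for 3. Over all 21844 probes the same counts were 7255 above and 5597 below at 16 mg, and 5660 above and 3660 below at 5 mg. The 110 higher probes had a median difference of 1.29 (1.38 within slide 1 and 0.87 within slide 2), with 0.18 for 16 mg minus control and -1.11 for 5 mg minus control. Both contrasts share the controls, and probes picked for a low or high 5 mg level relative to 16 mg favour such a pattern. Over all 21844 probes, the medians were 0.15 for 16 mg minus control and -0.03 for 5 mg minus control.

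Distance from the untreated level was also read over all compared probes. The median absolute difference from the control mean was 0.65 on the log2 scale at 16 mg and 0.78 at 5 mg. The 16 mg arrays were uneven in their distance from single control arrays. Array 1 was over 2-fold apart from these for 20.6% to 27% of probes. For array 2 it was 40.9% to 44%, and for array 3 it was 13% to 16.5%. The 5 mg arrays ran from 31.4% to 50.9%. At 16 mg, the mean of 2765 probes was over 2-fold above the control mean, and that of 2096 was over 2-fold below it. At 5 mg the counts were 4087 above and 3359 below. Without 5 mg array 1 the median at 5 mg was again 0.78, with 3555 above and 4174 below. By these group means and pairs, the higher dose thus stood no further from control. The order turned for probes on which all arrays of a dose lay outside the controls. At 16 mg, all arrays lay above every control for 7255 probes and below every control for 5597. At 5 mg these counts were 5660 and 3660. The part of the wider spread at 5 mg in either order was not tested.

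The doses lay wholly apart for few probes. If dose made no difference, 3 arrays against 3 would still lie wholly apart for a share of 0.1. The counts below are therefore a description and no finding about the probes. All 3 arrays at 16 mg were above all 3 at 5 mg for 572 probes (2.62%) and below for 1060 (4.85%), together 7.47%. With spike-in scaling these counts were 551 above and 411 below, and without 5 mg array 1 they were 2175 above and 1443 below, so the balance between them depends on the scale and on that array. With 1 array left out the share must rise, since fewer arrays have to part: it was 12.5%, 16.4% and 11.8% without 16 mg arrays 1, 2 and 3, and 16.6%, 27.5% and 19.7% without 5 mg arrays 1, 2 and 3. Over all 6 arrays, the probes wholly above had a median difference of 0.78 and those wholly below one of -0.96.

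Large fitted differences differed in how evenly the pools showed them. At 16 mg Cd/kg, 73 probes were fitted over 4-fold lower and 57 over 4-fold higher. Both groups were picked by that difference on these same arrays, and no probe in them passed the adjusted threshold. Their levels by array thus describe them and are no separate support. The 73 lower ones were even among pools: their median level was -1.13, -1.48 and -1.48 on 16 mg arrays 1 to 3, against 1.36, 0.56 and 0.75 on 5 mg arrays 1 to 3, and controls lay at -0.95 to -0.54. Their median SD was 0.39 at 16 mg and 0.45 at 5 mg, and without 5 mg array 1 all 73 remained over 2-fold lower, 51 of them over 4-fold. Their median difference was -2.08 within slide 1 and -2.19 within slide 2, on the arrays that selected them. They comprised 36 contigs and 37 read-named probes. Of the 73, 55 were well above background on all 16 mg arrays, as were 21620 of all 21844. For the rest of the 73, at least 1 level at 16 mg is only an upper limit, so the fold is not exact.

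The 57 probes fitted over 4-fold higher rested mostly on a single pool. Their median level was 2.83, 2.73 and 2.67 on 16 mg arrays 1 to 3, against -3.45, 2.90 and 1.74 on 5 mg arrays 1 to 3, with controls at 2.90 to 3.25. Thus 5 mg array 1 was far below all others, 5 mg array 2 was level with the controls, and 5 mg array 3 lay below the controls and the 16 mg arrays. Array 1 at 5 mg was the lowest of the 6 cadmium arrays for 55 of the 57. Without it, 2 of the 57 stayed over 4-fold higher, and 13 probes were so among all compared. The median difference of the 57 was 0.02 within slide 1 and 0.86 within slide 2, neither of which holds 5 mg array 1. Of the 57, 46 were read-named and 11 were contigs, while read-named probes made up 10559 of the 21844. All 57 were well above background on every control array, as were 97.8% of all compared probes. At 5 mg, 20 of the 57 were so on all 3 arrays, as were 17234 of all 21844. For the rest of the 57, at least 1 level at 5 mg is only an upper limit.

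The count of large differences moved with other pools too. Leaving out 16 mg array 2 gave 87 over 4-fold higher, and leaving out 5 mg arrays 2 and 3 in turn gave 632 and 356. Leaving out 16 mg array 1 gave 156 over 4-fold lower, and leaving out 5 mg array 3 gave 111. Each count was taken anew over all compared probes.

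**Figure D4:**
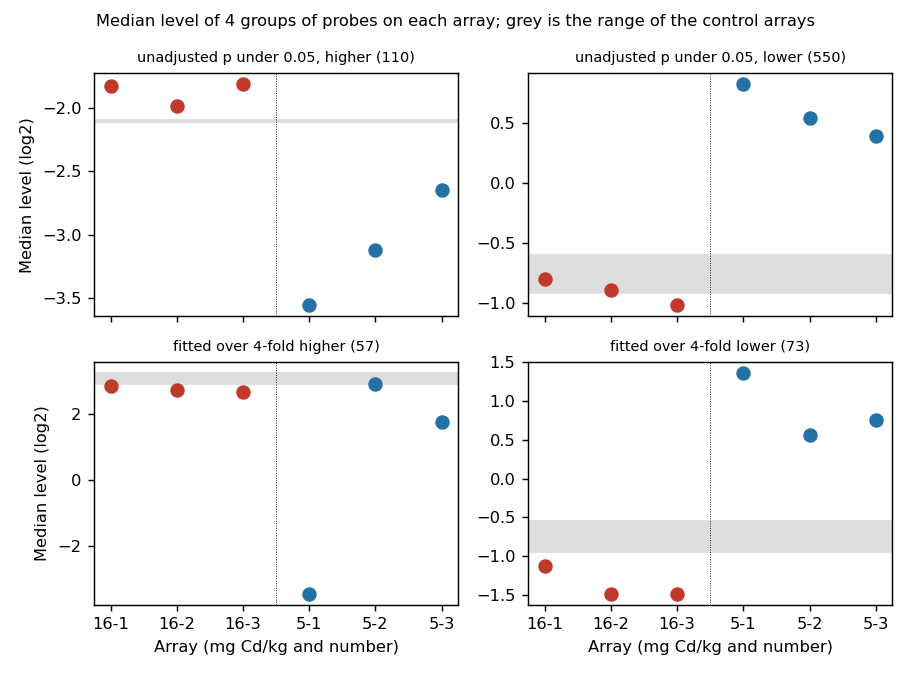
Median level (vertical axis, log2) of 4 groups of probes on each cadmium array, 16 mg arrays in red and 5 mg arrays in blue, with the range of the 3 control arrays in grey. The 57 probes fitted over 4-fold higher drop to -3.45 on 5 mg array 1 alone, while the 73 fitted over 4-fold lower are low on every 16 mg array.

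The strongest single candidates were lower at the higher dose. They were picked for the smallest p on these same arrays. Their intervals are not adjusted for that choice, which favours large differences and doses that do not overlap. GYUW2K402I59SC had levels of -2.79, -2.96 and -2.81 at 16 mg Cd/kg, against 0.73, 0.16 and 0.83 at 5 mg Cd/kg. The doses did not overlap, and the controls, at -0.68, -0.79 and -1.07, lay between them. The means were -2.86 ± 0.10 at 16 mg and 0.58 ± 0.36 at 5 mg (SD, n = 3 each), a difference of -3.43 with an SE of 0.39 and a 95% interval of -4.31 to -2.55 (limma adjusted p = 0.249, the smallest of all). Array 1 at 16 mg did not read the spot as above background, so its level there is an upper limit. That level already lay above the faintest one detected on the array, -2.97, so raising it to that floor left the difference at -3.43.

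GYUW2K401EVF7M behaved much the same, with levels of -3.53, -3.40 and -2.29 at 16 mg, against 0.94, 0.26 and 0.78 at 5 mg. Every 16 mg array was below, and every 5 mg array above, the controls at -0.56, -0.72 and -1.07. The difference was -3.73 with an SE of 0.47 and a 95% interval of -4.79 to -2.67 (limma adjusted p = 0.274). Array 1 at 16 mg again did not read it as above background, and with that level raised to the faintest one detected there the difference was -3.54. Within slide 1 the differences of GYUW2K402I59SC and GYUW2K401EVF7M were -2.95 and -3.79, and within slide 2 they were -3.72 and -3.62, on the arrays that selected them. With normexp and quantile scaling they were -1.22 and -1.23. That setting adds an offset of 50 to each signal, which shrinks log2 differences of dim probes.

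The probes with the smallest p in the other direction were dim. Probe contig13501 had levels of -2.44, -3.16 and -2.76 at 16 mg, against -4.17, -4.60 and -4.75 at 5 mg, where no array read it as above background. The measured means were -2.79 ± 0.36 at 16 mg and -4.51 ± 0.30 at 5 mg (SD, n = 3 each; limma adjusted p = 0.486). A signal below background is only an upper limit. Set against the lowest signal of any probe well above background on the same arrays, the 16 mg level was not higher, so no fold is given. Controls lay at -2.58, -2.38 and -2.42, with the spot above background on all 3.

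Probe contig15533 had levels of -2.44, -2.87 and -2.37 at 16 mg, against -3.57, -4.70 and -4.77 at 5 mg. All arrays at 16 mg and none at 5 mg read it as above background, and the 16 mg level was higher by at least 1.16-fold (limma adjusted p = 0.569, measured means -2.56 and -4.35). Controls 2 and 3 had -3.11 and -4.00, and control array 1 was left out for a flagged spot. With normexp and quantile scaling the log2 differences of contig13501 and contig15533 were 0.12 and 0.17. The same offset of 50 shrinks differences of probes this dim.

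Detection itself was then compared between the doses. Of all 43750 probes, 367 (0.839%) were well above background on the 3 arrays at 16 mg and on none at 5 mg, and 3 (0.00686%) on the 3 arrays at 5 mg and on none at 16 mg. Of the 367, 320 (87.2%) were above background on all 3 control arrays, 29 on 2, 10 on 1 and 8 on none. The share on all 3 control arrays was 97.8% over the compared probes. They comprised 244 contigs and 123 read-named probes. The count of 367 grew to 1687 when 16 mg array 1 was left out, and to 589, 596 and 962 when 5 mg arrays 1, 2 and 3 were left out in turn. The count of 3 became 5, 14 and 7 when 16 mg arrays 1, 2 and 3 were left out in turn, and 16, 13 and 5 when 5 mg arrays 1, 2 and 3 were.

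The 367 were weak signals. Their median level was -2.48, -3.04 and -3.0 on 16 mg arrays 1 to 3, against -2.77, -3.31 and -3.73 on 5 mg arrays 1 to 3, with controls at -2.50 to -2.36. The ranges of these medians overlapped between the doses. The median of the lower bound of the difference was -0.05 on the log2 scale, and 204 of the 367 had no bound above 0. None of the 367 had a bound of 2-fold.

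The largest bounds among the 367 came from 1 pool. Probe contig23433 had levels of -0.34, -2.75 and -2.82 at 16 mg, against -2.64, -2.94 and -3.50 at 5 mg, which is at least 1.75-fold higher over all 3 arrays (limma adjusted p = 1, measured means -1.97 and -3.03). Its doses overlapped, and without 16 mg array 1 the bound was 0.994, below 1. Probe contig19110 had levels of -0.43, -3.15 and -2.56 at 16 mg, against -3.08, -4.46 and -4.15 at 5 mg, which is a bound of at least 1.66-fold (limma adjusted p = 1, measured means -2.05 and -3.90). Without 16 mg array 1 that bound was 0.946.

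The 3 probes seen at 5 mg and not at 16 mg were GYUW2K401EFRLB, GYUW2K401CSZJJ and contig25175, the last named after its values were seen because the count is so small. GYUW2K401EFRLB had levels of -3.23, -3.60 and -3.97 at 16 mg, against -1.12, -1.76 and -1.07 at 5 mg, and controls at -2.63, -2.20 and -2.51 lay between. It was at least 4.36-fold higher at 5 mg (limma adjusted p = 0.301, measured means -3.60 at 16 mg and -1.32 at 5 mg), and leaving out 5 mg arrays 1, 2 and 3 in turn gave bounds of 4.07, 5.08 and 4.0. Its difference was -1.47 within slide 1 and -2.72 within slide 2.

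GYUW2K401CSZJJ had levels of -3.43, -3.98 and -3.76 at 16 mg, against -1.85, -1.98 and -2.79 at 5 mg, and was at least 2.50-fold higher at 5 mg (limma adjusted p = 0.711, measured means -3.72 at 16 mg and -2.21 at 5 mg). Of the control arrays, 1 of 3 read it as above background. Probe contig25175 had levels of -3.20, -4.33 and -3.59 at 16 mg, against -1.81, -2.21 and -2.99 at 5 mg, and was at least 2.20-fold higher at 5 mg (limma adjusted p = 1, measured means -3.71 at 16 mg and -2.34 at 5 mg). Controls showed contig25175 on all 3 arrays, at -2.45, -1.87 and -2.68, in the range of the 5 mg arrays. The bounds were computed only on the processed signals. With normexp and quantile scaling the log2 differences of GYUW2K401EFRLB, GYUW2K401CSZJJ and contig25175 were -0.35, -0.25 and -0.19. The offset of 50 in that setting shrinks differences of dim probes, so these values do not test the bounds.

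**Figure D5:**
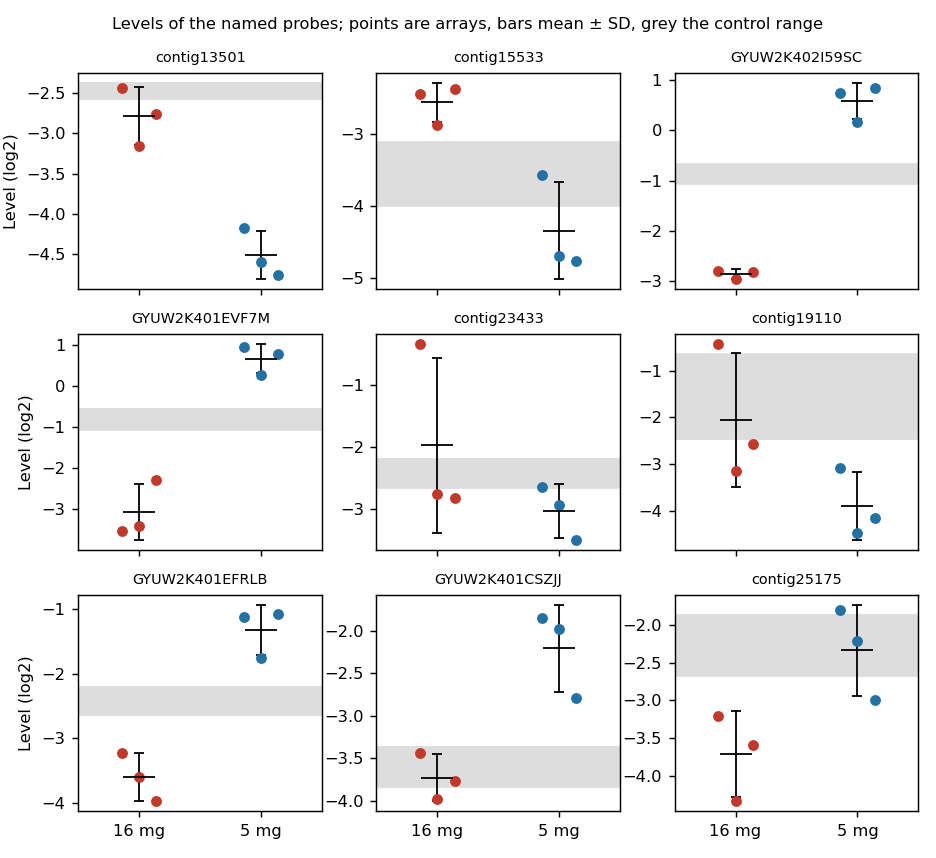
Levels (vertical axes, log2 relative to the 75th percentile) of the 9 named probes on the 3 arrays at 16 mg Cd/kg (red) and the 3 at 5 mg Cd/kg (blue), arrays 1 to 3 left to right, with mean ± SD and the control range in grey. GYUW2K402I59SC, GYUW2K401EVF7M and GYUW2K401EFRLB lie below the controls at 16 mg and above them at 5 mg, while contig23433 and contig19110 are high on 16 mg array 1 alone among the cadmium arrays.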

How the data were processed

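Expression was measured on 9 arrays, of which the 6 cadmium arrays were tested. The deposited intensity values came from Agilent Feature Extraction 10.7.3.1, as the headers state, and are its processed signals, background-subtracted within each array and not scaled between arrays. The authors also deposited a series-wide matrix of the same intensity values on the same linear scale, uncentred, within 0.497% of the scanner files. Its column medians were 7.99, 12.0 and 13.8 at 16 mg, 7.23, 7.41 and 11.3 at 5 mg, and 15.6, 15.0 and 13.6 in controls.

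Of the array's features, 43750 are probes with a single spot and 1417 are controls. No step used the controls except the spike-in scaling and the normexp correction, which was fitted on all features. No spot was saturated, and 12 spots flagged as outliers on the 6 arrays were left out singly, which touched 7 of the compared probes. Signals were divided by the array's 75th percentile and taken as log2. The doses were compared with limma (3.58.1, in R 4.3.3; files read with version 1.17.8 of data.table; statmod 1.5.0), lmFit and eBayes on 6 arrays in 2 groups, two-sided, with Benjamini-Hochberg adjustment over 21844 probes at 0.05, which left 4 residual degrees of freedom. The fit was tested on simulated data.

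Named probes were the 2 in each direction past the threshold with the largest change, or, with none, those with the smallest p. For detection they were the 2 in each direction with the largest lower bound. The bound compares the mean of the brighter dose with a raised mean of the dimmer one, in which no array counts for less than its faintest probe that is well above background. The alternatives covered background correction, scaling, filter, variance model, slide, scan session, replicate number and leaving out each array. The normexp alternative added an offset of 50 to each signal. Normexp used median spot signals, a choice made after seeing that the files give no mean signal, and the fold counts, spreads and distances from control without single arrays and the raised levels of undetected spots were also added after seeing the data. The probes, tests and lists were chosen with earlier results of these data known.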

Additional observations from a re-analysis of the deposited data

How the results depend on the processing

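The count of 0 held in 14 of 18 other settings and in all 6 fits that left out 1 array, whose smallest adjusted p was 0.0521 to 1. The exceptions were 62 with 9 arrays, 5 with array weights and 2 with slide or with scan session as a fixed block, which are the same fit here. GYUW2K402I59SC and GYUW2K401EVF7M passed in these 4, and GYUW2K401EFRLB in 1. Over 25 alternatives their differences were -3.72 to -1.22, -4.12 to -1.23 and -2.72 to -0.35, and no named probe changed direction. The difference nearest to none came, for each of them, with normexp and its offset of 50. In the weighted fit, 5 mg arrays 1 to 3 had weights of 0.237, 0.469 and 1.75. Slide as a random block gave 0 calls (smallest adjusted p 0.0789).

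The 1321 probes with an interval within 2-fold were 14935 with normexp and quantile, 2010 with quantile scaling, 0 with spike-in scaling, 0 with no filter, 5623 with 9 arrays, 4523 with array weights, 308 with weights per dose, 3049 without moderation, 3243 with slide or session as a fixed block, 3699 with slide as a random block, and 0 to 2830 without 1 array. The offset of 50 in normexp shrinks log2 differences and SDs, so the 14935 does not show that the doses act alike. Causes of the other changes were not tested. The share wholly apart was 4.40% with spike-in scaling and 11.8% to 27.5% without 1 array. The median SD at 16 mg was 0.15 with normexp and quantile, 0.57 with spike-in scaling and 0.27 to 0.36 without 1 array, and that at 5 mg was 0.31 with normexp and quantile and 0.44 to 0.69 without 1 array. With the flag for signal significantly above background, 10 probes were seen only at 5 mg, and without 1 array 5 to 16. The count of 367 was 442 to 1687 and the difference of 4147 was 3185 to 5624 without 1 array.

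Normexp on mean signals was not run. Deviations of arrays 1, 2 and 3 correlated across the doses at 0.09, 0.11 and -0.08 for like replicate numbers. For unlike numbers they correlated at -0.27 to 0.3. These values showed no pairing by replicate number, but 3 arrays a dose are too few to settle it. With the replicate block, 0 probes passed (smallest adjusted p 0.44) and 0 had an interval within 2-fold. Spots near background limit what the dim probes can show.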
